A study of Mus musculus with 18 samples.

Results

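The genes described here encode 10 ligands and ligand-like enzymes through which cells restrain or stimulate immune cells: Cd274, Pdcd1lg2, Cd80, Cd86, Cd276, Lgals9, Nt5e, Cd47, Pvr and Ido1. They were chosen by name, though with earlier results of these data known, out of 54532 genes counted in 18 tumours. The tumours were grown in mice from PB2, a mouse breast cancer cell line. Of these tumours, 8 were labelled p95HER2 for a shortened HER2 receptor that they overexpressed, and the 10 set against them were labelled EV, which the labels do not spell out. Tumours are numbered within their group. All 18 tumours, of both genotypes, came from mice on the doxycycline diet DOX625. The labels do not give the mouse strain, age, sex, the promoter behind p95HER2, or whether the p95HER2 cells were a single clone. They also do not say that each tumour came from its own mouse, and p-values then reflect only how far these samples spread, which may be technical. Whole tumour tissue was sequenced, so the counts do not show which cells carried a ligand's mRNA. The samples held epithelial marker mRNA (12 of 12 keratin, cadherin and similar genes tested) and macrophage marker mRNA (15 of 15 tested), and reads from tumour cells and host cells are counted together. Of the 10 ligand genes, 9 passed the filter on low counts, and Ido1 did not.

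Checkpoint ligands are surface or secreted proteins that bind receptors on T cells, NK cells or macrophages and set how strongly those cells respond. PD-L1 and PD-L2 (Cd274 and Pdcd1lg2) bind the inhibitory receptor PD-1, and CD80 and CD86 stimulate T cells through CD28 and are captured by the inhibitory receptor CTLA-4. CD47 signals to macrophages through SIRPA against phagocytosis, PVR is shared by the inhibitory receptors TIGIT and CD96 and the activating receptor CD226, and galectin-9 (Lgals9) is a ligand of TIM-3. CD73 (Nt5e) makes adenosine outside the cell, IDO1 breaks down tryptophan, and B7-H3 (Cd276) is a B7 family protein whose receptor is not settled. Several of these genes, Cd274, Pdcd1lg2, Lgals9 and Ido1 among them, are known to be induced by interferons.

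The stretches before the starts of Lgals9 and Cd274 are shown because levels of these genes varied between tumours together with interferon-induced genes, as described below. The RefSeq promoter table (GRCm38.p6, the same assembly as mm10) held 7 of the 10 ligand genes. The 250 bases before each start were searched on both strands for 5 motifs. These were an ISRE-like motif (GAAA, any 2 bases, GAAA), the GAS motif (TTCNNNGAA), the AP-1 motif (TGANTCA), the hypoxia element core (ACGTG) and the Sp1 motif (GGGCGG). Capitals mark every match. The Lgals9 stretch is chr11:78984947-78985174 on the minus strand and ends where the annotated first exon begins, and the Cd274 stretch is chr19:29367188-29367437 on the plus strand.
Lgals9: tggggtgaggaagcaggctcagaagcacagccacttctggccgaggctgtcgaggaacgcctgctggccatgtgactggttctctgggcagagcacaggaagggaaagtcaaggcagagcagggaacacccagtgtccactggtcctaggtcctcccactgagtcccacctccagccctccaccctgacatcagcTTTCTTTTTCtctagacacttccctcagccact
Cd274: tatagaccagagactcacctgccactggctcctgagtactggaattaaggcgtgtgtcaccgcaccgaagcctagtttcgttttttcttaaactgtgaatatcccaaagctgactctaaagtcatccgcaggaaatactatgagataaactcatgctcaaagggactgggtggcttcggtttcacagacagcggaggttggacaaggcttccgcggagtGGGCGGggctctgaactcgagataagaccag
The capitals in Lgals9 are an ISRE-like match on the reverse strand, which lies 55 to 46 bases before the RefSeq start (-55 to -46). Of 32851 promoter windows of that length, 2.98% hold this motif. Cd274 has a single Sp1 match, a motif present in 32.7% of the windows. Neither the ISRE-like nor the GAS letters occur in the windows of Cd274, Pdcd1lg2, Cd80, Cd276, Nt5e or Cd47, which says only that these letters are not in those windows.

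Library totals ran from 32686558 to 34804640 counts in p95HER2 tumours and from 35030920 to 38464541 counts in EV tumours, without overlap. The numbers in the tumour tags also run separately in the 2 groups, and that of p95HER2 1 lies far from the rest. A difference in handling that followed tags or totals therefore cannot be told apart from genotype. Values are given as CPM, counts scaled to a fixed library total, which compare 1 gene between tumours. Erbb2, which encodes HER2, was at 158 ± 37.7 CPM in p95HER2 tumours (SD, n = 8) and 67.9 ± 4.64 CPM in EV tumours (SD, n = 10), and no tumour's value crossed into the other group.

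Of the 9 ligand genes tested, 1 rose and 1 fell in p95HER2 tumours (edgeR quasi-likelihood test, Benjamini-Hochberg (BH) adjusted p under 0.05 over all genes). Nt5e rose about 1.98-fold and Cd86 fell to 0.621 of its EV level. Among all 17123 genes tested, 5.73% rose, 4.45% fell and 10.2% passed in either direction, and nothing particular to the ligands is read from 2 called among 9. The median log2 fold change of the 9 ligands was -0.05, beside -0.01 over all genes tested. The remaining 7 ligand genes did not pass.

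**Figure D1:**
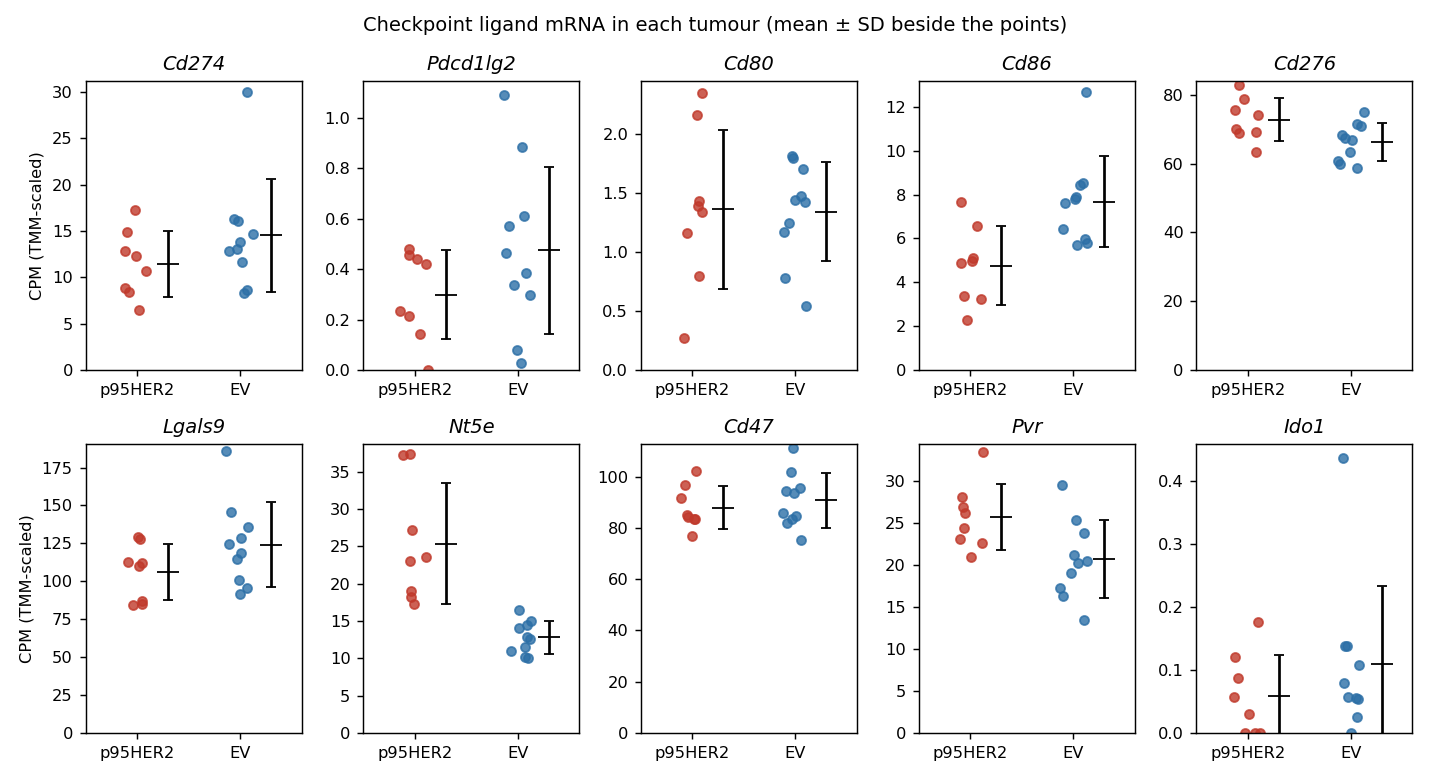
CPM of each ligand gene in every tumour, with 1 point per tumour, 8 p95HER2 tumours left of 10 EV tumours in each panel, linear axes from 0, and the mean with its SD drawn beside the points. Nt5e is the only panel without overlap between the groups (lowest p95HER2 tumour 17.3 CPM, highest EV tumour 16.5 CPM), and EV 7 stands above the other EV tumours for Cd274 and Cd86.

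Nt5e (ENSMUSG00000032420, chromosome 9, 88327197 to 88372092, plus strand, mm10) had a lowest value of 17.3, a median of 23.3 and a highest value of 37.4 CPM in p95HER2 tumours, against 10.1, 12.7 and 16.5 CPM in EV tumours. Every p95HER2 tumour was above every EV tumour, which 0.677% of all genes tested showed in this direction. Its log2 fold change was 0.99 (SE 0.15, edgeR adjusted p = 0.00061). With any single tumour left out it was 0.88 to 1.05 on the log2 scale, and it remained called with the macrophage marker level as a covariate (1.10, edgeR adjusted p = 0.0114), a fit in which 1.02% of all genes passed. Macrophage and epithelial marker levels are set beside the ligands further on.

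CD73 acts on AMP that CD39, encoded by Entpd1, releases from ATP. Entpd1 was at 12.7 ± 3.27 CPM in p95HER2 tumours (SD, n = 8) and 17.7 ± 4.57 CPM in EV tumours (SD, n = 10), a log2 fold change of -0.47 that did not pass (edgeR adjusted p = 0.0727). The ratio of Nt5e to Entpd1 counts within a tumour, a measure chosen after the values were seen, was 2.05 ± 0.689 in p95HER2 tumours (lowest 1.40, highest 3.61) and 0.772 ± 0.238 in EV tumours (lowest 0.370, highest 1.20). The ratio was thus 2.67 times as high in p95HER2 tumours, without overlap, and is given as a description with no test. Nt5e alone already did not overlap between the groups, so the ratio largely restates the higher Nt5e. Reads of Nt5e were more numerous than those of Entpd1 in all 8 p95HER2 tumours and fewer in 8 of 10 EV tumours. Among 9 tested genes of adenosine production, breakdown and sensing other than Nt5e, 1 rose and 1 fell, beside 5.73% and 4.45% of all genes. The receptor gene Adora1 ran from 16.3 to 24.9 CPM in p95HER2 and from 12.2 to 21.0 CPM in EV tumours (log2 fold change 0.36, edgeR adjusted p = 0.0436), and Adora2a, which encodes the main adenosine receptor of T cells, was at 1.19 ± 0.129 and 1.58 ± 0.263 CPM in the same order (-0.41, edgeR adjusted p = 0.042). These calls ended in 11 and 12 of the 18 fits that dropped a tumour (edgeR adjusted p up to 0.0884 and 0.0842). They also ended with the macrophage covariate, at 0.12 for Adora1 and -0.26 for Adora2a (edgeR adjusted p = 0.771 and 0.582), without a filter (0.0609 and 0.127) and with the skeletal muscle covariate (0.0878 and 0.0616).

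Cd86 (ENSMUSG00000022901, chromosome 16, 36603869 to 36666081, minus strand, mm10) ran from 2.30 over a median of 4.93 to 7.68 CPM in p95HER2 tumours, and from 5.70 over 7.71 to 12.7 CPM in EV tumours. All 8 p95HER2 tumours were below the EV median and 6 were below the lowest EV tumour. The log2 fold change was -0.69 (SE 0.20, edgeR adjusted p = 0.0338). Fewer cells of a type and less RNA per cell cannot be told apart in such bulk samples, and macrophage markers were lower in the same tumours. Of 15 macrophage markers tested, 8 fell and 1 rose, where 4.45% and 5.73% of all genes did. None was at 0 in every tumour, and their summed level was 643 to 1149 CPM in p95HER2 tumours against 861 to 1658 CPM in EV tumours. With the macrophage marker level as a covariate the Cd86 log2 fold change was -0.09 (edgeR adjusted p = 0.89). The call also ended when EV 5, EV 7, EV 9 or p95HER2 1, 2, 3, 4, 5 or 7 was left out (edgeR adjusted p from 0.0509 to 0.0728), and without a filter on low counts (edgeR adjusted p = 0.057), where 4.26% of all genes passed.

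Cd80 (ENSMUSG00000075122, chromosome 16, 38455561 to 38496335, plus strand, mm10), whose protein binds the same receptors as CD86, had 0.268, 1.36 and 2.34 CPM as its lowest, median and highest values in p95HER2 tumours, against 0.546, 1.43 and 1.81 CPM in EV tumours. The p95HER2 tumours reached both above and below the EV range. Its log2 fold change of 0.02 (SE 0.29, edgeR adjusted p = 0.975) changed sign when EV 3, EV 8, p95HER2 6 or p95HER2 8 was left out, and was 0.93 with the macrophage covariate (edgeR adjusted p = 0.185). The ratio of Cd80 to Cd86 counts, also chosen after the values were seen, was 0.273 ± 0.0767 in p95HER2 tumours (SD, n = 8) and 0.178 ± 0.0566 in EV tumours (SD, n = 10). It was 1.54 times as high in p95HER2 tumours, with 7 of 8 above the EV median, a description that restates the lower Cd86. Cd86 had more reads than Cd80 in both groups.

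Cd274 (ENSMUSG00000016496, chromosome 19, 29367455 to 29388095, plus strand, mm10) was at 6.53, 11.5 and 17.2 CPM (lowest, median, highest) in p95HER2 tumours and at 8.29, 13.4 and 30.0 CPM in EV tumours. The groups overlapped widely, and 6 of 8 p95HER2 tumours lay below the EV median. The log2 fold change was -0.34 (SE 0.23, edgeR adjusted p = 0.365), and it was -0.16 without EV 7, the tumour at 30.0 CPM. An antisense gene shares 511 exonic bases with Cd274, and how reads were assigned to strands is not stated, so its counts are uncertain. Pdcd1lg2 lies next to it on chromosome 19 (ENSMUSG00000016498, 29410919 to 29471161) and was scarce, with 0 to 0.480 CPM in p95HER2 tumours and 0.0271 to 1.09 CPM in EV tumours. These values rest on at most 38 reads per tumour, and the log2 fold change of -0.66 had an SE of 0.50 (edgeR adjusted p = 0.436).

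Genes of the interferon gamma pathway, a known inducer of PD-L1, gave no call. The list of 12 tested genes held genes of that pathway, Cmtm6 and Cmtm4 for PD-L1 protein stability, and the further gene Plgrkt. None of the 12 passed in edgeR, where 2 had an unadjusted p under 0.05 (26.3% of all genes did). Their median log2 fold change was -0.03. Ifng itself was at 0.336 ± 0.179 CPM in p95HER2 tumours (SD, n = 8) and 0.874 ± 0.867 CPM in EV tumours (SD, n = 10), its log2 fold change being -1.37 (SE 0.56, edgeR adjusted p = 0.123). Irf2 ran from 29.6 to 42.7 CPM in p95HER2 and from 36.2 to 55.5 CPM in EV tumours (log2 fold change -0.19, edgeR adjusted p = 0.116).

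Pvr (ENSMUSG00000040511, chromosome 7, 19903578 to 19921160, minus strand, mm10) had 21.0, 25.3 and 33.5 CPM as lowest, median and highest values in p95HER2 tumours, against 13.5, 20.4 and 29.6 CPM in EV tumours. All 8 p95HER2 tumours were above the EV median, but only 1 was above EV 1, the highest EV tumour. The log2 fold change of 0.32 (SE 0.12) did not pass (edgeR adjusted p = 0.107). It passed without EV 1 (0.39, edgeR adjusted p = 0.0264) and once the level of epithelial markers was a covariate (0.35, edgeR adjusted p = 0.0149), where 6.78% of all genes rose. Without both EV 1 and p95HER2 4 it passed as well (0.40, edgeR adjusted p = 0.0377), with 5.69% of all genes called higher. The fit without EV 1 was the only 1 of 18 that dropped a single tumour in which Pvr passed (edgeR adjusted p up to 0.185). Pvr also did not pass without a filter (0.182) or with the macrophage or skeletal muscle covariate (0.352 and 0.154), nor in DESeq2 (BH-adjusted p = 0.071). Nectin2, which encodes the other main ligand of TIGIT and CD226, rose slightly, to 34.6 ± 2.42 CPM in p95HER2 tumours against 30.3 ± 2.66 CPM in EV tumours (log2 fold change 0.19, SE 0.06, edgeR adjusted p = 0.032). That call ended in 6 of 18 fits that dropped a tumour (edgeR adjusted p up to 0.0632), without a filter (0.0593), and with the skeletal muscle or macrophage covariate (0.0614 and 0.348).

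Cd47 (ENSMUSG00000055447, chromosome 16, 49800533 to 49915010, plus strand, mm10) was at 76.8, 84.6 and 102 CPM (lowest, median, highest) in p95HER2 tumours and at 75.3, 89.6 and 111 CPM in EV tumours, so the ranges nearly coincided. Its log2 fold change was -0.05 with an SE of 0.07 (edgeR adjusted p = 0.723). Its receptor gene Sirpa, which macrophages express, fell to 32.8 ± 5.74 CPM in p95HER2 tumours against 48.4 ± 10.9 CPM in EV tumours (log2 fold change -0.56, SE 0.13, edgeR adjusted p = 0.0129). Within a tumour the ratio of Cd47 to Sirpa counts, chosen after the values were seen, was 2.72 ± 0.297 in p95HER2 and 1.93 ± 0.334 in EV tumours. By this ratio 7 of 8 p95HER2 tumours were above the highest EV tumour. It is again a description and largely restates the lower Sirpa, as Cd47 itself hardly differed. Of 5 other tested genes around CD47, 1 rose and 0 fell, beside 5.73% and 4.45% of all genes. Lrp1, a phagocytic receptor for calreticulin, rose to 221 ± 24.9 CPM in p95HER2 against 183 ± 25.1 CPM in EV tumours (log2 fold change 0.27, edgeR adjusted p = 0.0363). The Lrp1 call ended in 9 of 18 fits that dropped a tumour (edgeR adjusted p up to 0.0757), without a filter (0.0538), and with the skeletal muscle or macrophage covariate (0.0558 and 0.0927).

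**Figure D2:**
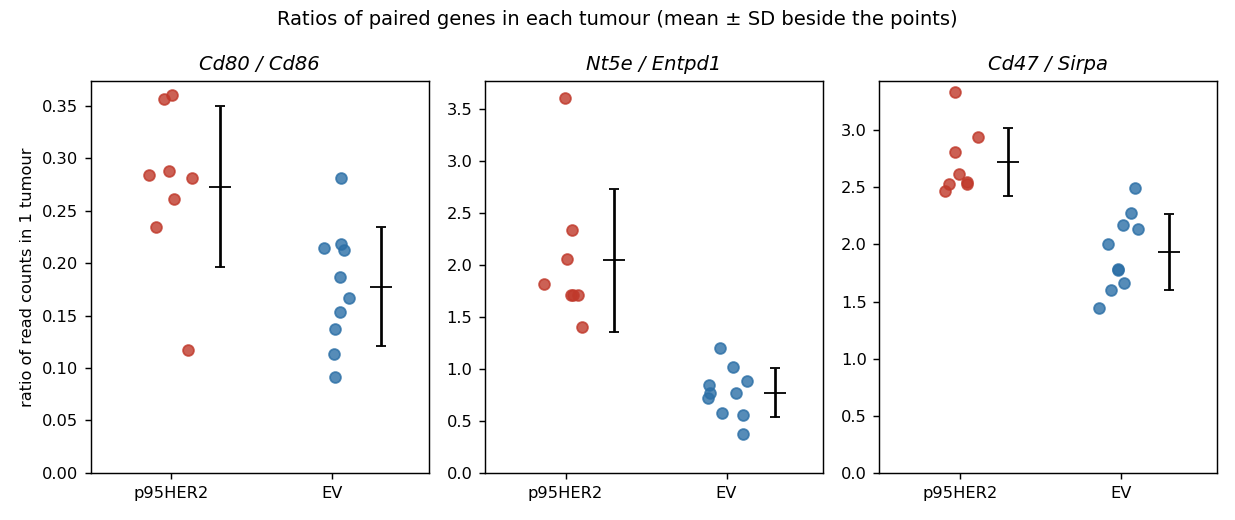
Ratios of read counts of paired genes within each tumour, 1 point per tumour, p95HER2 (8) left of EV (10) in each panel, with the mean and SD beside the points. The Nt5e to Entpd1 ratio separates the groups fully (lowest p95HER2 tumour 1.40, highest EV tumour 1.20), as Nt5e alone does, while the Cd80 to Cd86 and Cd47 to Sirpa ratios overlap.

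Cd276 (ENSMUSG00000035914, chromosome 9, 58524298 to 58555437, minus strand, mm10) varied little between tumours, from 63.3 over a median of 72.0 to 82.8 CPM in p95HER2 and from 58.7 over 67.2 to 75.0 CPM in EV tumours. Of the p95HER2 tumours, 7 were above the EV median and 3 above the highest EV tumour. The log2 fold change was 0.14 (SE 0.06, edgeR adjusted p = 0.124), and 416 of its exonic bases overlap an antisense gene, with the same uncertainty. Lgals9 (ENSMUSG00000001123, chromosome 11, 78962974 to 78984946, minus strand, mm10) ran from 84.1 over 111 to 129 CPM in p95HER2 tumours and from 91.3 over 122 to 186 CPM in EV tumours. Its log2 fold change was -0.23 (SE 0.13, edgeR adjusted p = 0.276), with EV 7 again the highest tumour.

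Ido1 (ENSMUSG00000031551, chromosome 8, 24584136 to 24597009, minus strand, mm10) was close to undetected. Its reads summed to 16 over the p95HER2 tumours and 40 over the EV tumours, of which EV 1 alone held 16. A count of 0, seen in 3 p95HER2 tumours and 1 EV tumour, allows up to 3 counts. Ido1 was below the filter, and in the fit without a filter its log2 fold change of -0.85 (SE 0.68) did not pass (edgeR adjusted p = 0.504). None of the 7 tested genes of tryptophan breakdown and response passed in edgeR, where 2 had an unadjusted p under 0.05 (26.3% of all genes did) and the median was -0.09. Afmid was at 3.81 ± 0.564 CPM in p95HER2 tumours and 3.02 ± 0.764 CPM in EV tumours (edgeR adjusted p = 0.171), and Haao at 0.544 ± 0.174 and 0.850 ± 0.364 CPM in the same order (edgeR adjusted p = 0.124).

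The receptors of these ligands had lower values in p95HER2 tumours. All 8 receptor genes had negative log2 fold changes with a median of -0.88, where 8948 of all 17123 genes tested were negative. Of the 8, 3 fell: Havcr2, Cd226 and Sirpa. Over all genes tested, 4.45% fell. Havcr2, which encodes TIM-3, fell to 6.21 ± 1.93 CPM in p95HER2 tumours against 10.1 ± 3.20 CPM in EV tumours (log2 fold change -0.70, edgeR adjusted p = 0.0209), and Cd226 to 0.485 ± 0.278 CPM in p95HER2 against 1.20 ± 0.659 CPM in EV tumours (-1.30, edgeR adjusted p = 0.0453). The Cd226 call ended in 12 of 18 fits that dropped a tumour (edgeR adjusted p up to 0.0869), without a filter (0.0851) and with the skeletal muscle covariate (0.103), while those of Havcr2 and Sirpa remained in all 18.

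Pdcd1, encoding PD-1, was at 2.26 ± 1.11 CPM in p95HER2 and 4.27 ± 1.96 CPM in EV tumours (log2 fold change -0.91), Ctla4 at 0.836 ± 0.423 and 1.62 ± 0.649 CPM (-0.95), and Cd28 at 0.801 ± 0.406 and 1.56 ± 0.658 CPM (-0.96), in the same order of groups. These did not pass in edgeR (BH-adjusted p = 0.0998, 0.057 and 0.0631) but did in DESeq2 (BH-adjusted p = 0.0345, 0.0242 and 0.0279), by which 6.59% of all genes fell. Tigit and Cd96 had log2 fold changes of -0.72 and -0.85 (edgeR adjusted p = 0.236 and 0.225). T cell markers were lower in the same tumours, with 3 of 13 tested markers called lower in edgeR, where 4.45% of all genes fell. None was at 0 in every tumour, and their summed level was 10.5 to 45.8 CPM in p95HER2 against 19.7 to 101 CPM in EV tumours. The part of these markers in the receptor values was not tested, and the macrophage covariate ended the calls of Havcr2, Cd226 and Sirpa (edgeR adjusted p = 0.925, 0.63 and 0.943).

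**Figure D3:**
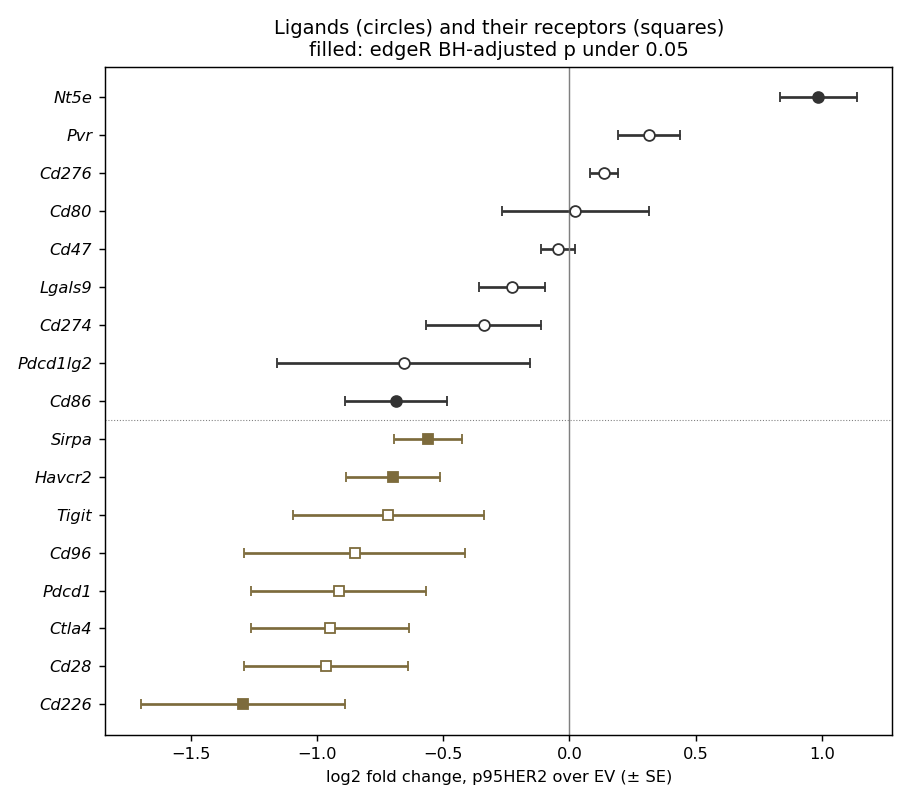
Log2 fold changes of p95HER2 over EV tumours with their SE for the 9 tested ligand genes (circles, above) and 8 receptor genes (squares, below), where filled symbols passed at an edgeR adjusted p under 0.05. The ligands spread on both sides of 0, from -0.69 for Cd86 to 0.99 for Nt5e, while all receptor values are negative.

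Among 20 further genes of immune ligands and costimulatory or adhesion molecules, 17 were tested, of which 1 rose and 4 fell (5.73% and 4.45% of all genes did), with a median log2 fold change of -0.20. Vtcn1, which encodes the B7 family inhibitor B7-H4, ran from 0.363 to 1.55 CPM in p95HER2 tumours against 1.23 to 2.42 CPM in EV tumours and fell by 0.98 on the log2 scale (SE 0.23, edgeR adjusted p = 0.0103), and 7 of 8 p95HER2 tumours were below every EV tumour. Its call remained in all 18 fits with a tumour left out. Cd40, a receptor that licenses antigen-presenting cells, fell to 3.07 ± 0.680 CPM in p95HER2 against 4.83 ± 1.47 CPM in EV tumours (edgeR adjusted p = 0.0316), and the adhesion gene Icam1 to 8.06 ± 2.07 CPM in p95HER2 against 11.8 ± 2.72 CPM in EV tumours (edgeR adjusted p = 0.0336). Cd48, chosen after seeing its value, fell by 0.70 on the log2 scale (edgeR adjusted p = 0.0426), and whether its call lasts in the alternative fits was not examined. The calls of Cd40 and Icam1 ended in 7 and 10 of 18 fits that dropped a tumour (edgeR adjusted p up to 0.0629 and 0.0704). Both also ended with the macrophage covariate, at -0.20 for Cd40 and -0.10 for Icam1 (edgeR adjusted p = 0.742 and 0.833), and with the skeletal muscle covariate (edgeR adjusted p = 0.0536 and 0.0528), and that of Icam1 without a filter (0.0506).

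None of 9 tested further receptors on lymphocytes and myeloid cells passed in edgeR, where 5 had an unadjusted p under 0.05 (26.3% of all genes did), and their median was -0.55. Icos was at 1.02 ± 0.594 CPM in p95HER2 tumours and 2.23 ± 1.13 CPM in EV tumours (edgeR adjusted p = 0.0709), and Cd200r1 at 0.861 ± 0.289 and 1.40 ± 0.434 CPM (edgeR adjusted p = 0.0582). In DESeq2 these passed, with BH-adjusted p = 0.0222 for Icos and 0.0331 for Cd200r1.

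The ligands differed widely in level. Levels per kilobase of annotated exon allow only a rough comparison of genes, because the exons of all annotated transcripts were merged, whichever were expressed. The antisense overlap of Cd274 and Cd276 also leaves their places uncertain. On this scale the mean level of Lgals9 was highest, at 49.6 ± 8.68 in p95HER2 and 58.1 ± 13.0 CPM per kilobase in EV tumours. Cd276 followed with 17.3 to 22.6 in p95HER2 and 16.0 to 20.5 CPM per kilobase in EV tumours, and Cd47 with 16.3 and 17.7 at most, in the same order of groups. Lgals9 was above Cd276, and Cd276 above Cd47, in all 18 tumours. The next levels were Pvr (4.21 and 3.38), Cd274 (3.17 and 4.01), Nt5e (2.95 and 1.49) and Cd86 (1.30 and 2.10 CPM per kilobase in p95HER2 and EV tumours), and the ranges of neighbours among these 4 overlapped in both groups. Pvr was above Cd274 in 7 of 8 p95HER2 tumours, while Cd274 was above Pvr in 8 of 10 EV tumours. Nt5e exceeded Cd86 in all 8 p95HER2 tumours, while Cd86 exceeded Nt5e in 8 of 10 EV tumours. Cd80, Pdcd1lg2 and Ido1 came last, with 0.367, 0.152 and 0.0322 CPM per kilobase in p95HER2 and 0.362, 0.242 and 0.0598 in EV tumours.

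The ligands were next set beside marker levels of 5 cell types, each the mean log2(CPM + 0.5) of a marker list that holds none of the ligands, in 50 pairs over 18 tumours. Of 11 marker levels, 6 differed between the groups (exact permutation test, BH-adjusted over 11 lists): macrophage, T cell, cytotoxic, B cell and adipocyte levels were lower and the neutrophil level higher in p95HER2 tumours. The macrophage level was 5.00 ± 0.27 in p95HER2 and 5.52 ± 0.28 in EV tumours (exact permutation, BH-adjusted p = 0.00452), and the epithelial level 6.37 ± 0.27 and 6.41 ± 0.32, a difference of -0.03 that did not pass. Since groups differed in some of these levels, the correlations below are given after centring on the group means, with permutation within groups, and the pooled value beside them. Tumours share scaling and tissue content, and 12 of 50 pairs passed pooled and 12 centred, with 8 pairs passing both ways.

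**Figure D4:**
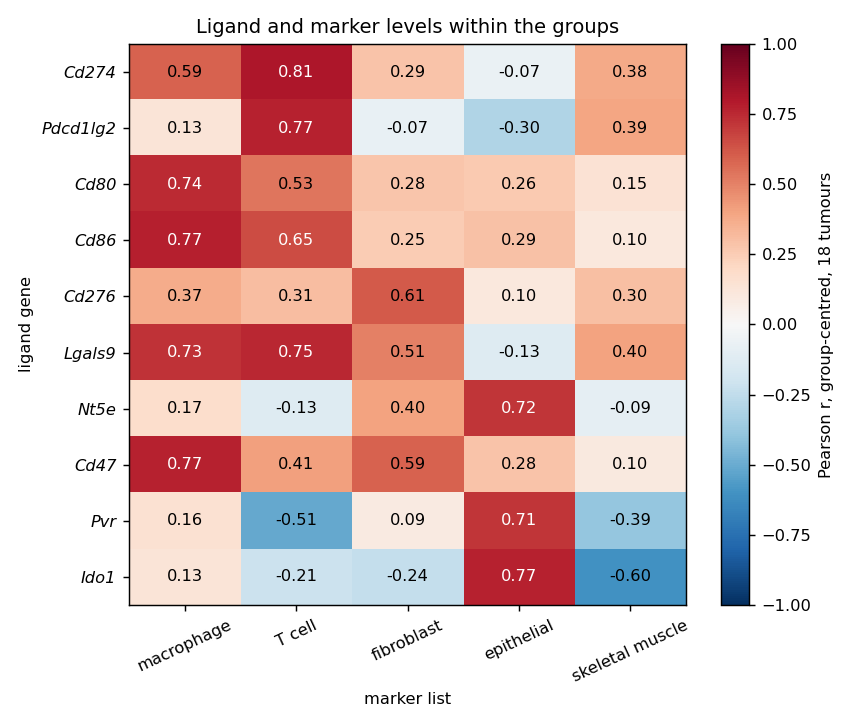
Pearson correlation of each ligand gene (rows) with each marker level (columns) over 18 tumours after centring on the group means, red for positive and blue for negative values. Cd86, Cd80, Cd47 and Lgals9 have r of 0.73 to 0.77 with macrophage markers. Cd274 has 0.81, Pdcd1lg2 0.77 and Lgals9 0.75 with T cell markers. Ido1, Nt5e and Pvr have 0.77, 0.72 and 0.71 with epithelial markers, and that of Ido1 is 0.18 without EV 1 and p95HER2 8.

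Cd86 followed the macrophage level, with a pooled r of 0.87 (Spearman rho 0.85, permutation p = 1e-05 and 5e-05, BH-adjusted 0.0005 and 0.00175, where 1e-05 is the smallest p the permutations can give). Centred, r was 0.77 (rho 0.80, permutation BH-adjusted p = 0.00408 and 0.0065), and r within the groups was 0.87 in p95HER2 and 0.71 in EV tumours. Without p95HER2 4 and p95HER2 1, the tumours farthest from the median, the pooled r was 0.78. Cd80, which was not called between the groups, also varied with macrophage markers inside them (centred r 0.74, rho 0.70, permutation BH-adjusted p = 0.00457 and 0.0162), whereas its pooled r of 0.56 did not pass (permutation BH-adjusted p = 0.0545) and was 0.37 without those tumours. Cd47 had a centred r of 0.77 and a pooled r of 0.65 (rho 0.75 and 0.59, permutation BH-adjusted p = 0.00408 centred and 0.0213 pooled for r, and 0.0102 and 0.0558 for rho), and the pooled r was 0.59 without them. With fibroblast markers Cd47 lay near the threshold, at a centred r of 0.59 and a pooled r of 0.58 (permutation BH-adjusted p = 0.0512 and 0.0475).

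Cd274 and Pdcd1lg2 varied with the T cell level. For Cd274 the pooled r with T cell markers was 0.82 and the centred r 0.81 (rho 0.80 and 0.78, permutation BH-adjusted p of both r values 0.001, of rho 0.0024 and 0.0065), with 0.96 within p95HER2 and 0.73 within EV tumours. It was 0.70 without p95HER2 4 and EV 7, while with macrophage markers the pooled r was 0.62 (rho 0.47, permutation BH-adjusted p = 0.0269 and 0.139). That relation did not pass centred (r 0.59, permutation BH-adjusted p = 0.0551), and its pooled r was 0.45 without p95HER2 4 and p95HER2 1. Pdcd1lg2 had a pooled and a centred r of 0.77 with T cell markers (rho 0.83 and 0.72, permutation BH-adjusted p = 0.0026 and 0.00408 for r, 0.00175 and 0.0151 for rho), and 0.65 without p95HER2 4 and EV 7. Whether the correlations with these 2 marker levels differ was not tested. Cd86 had a pooled r of 0.77 with T cell markers (rho 0.72, permutation BH-adjusted p = 0.002 and 0.00971), with 0.94 within p95HER2 and 0.46 within EV tumours. Its centred r was 0.65 (rho 0.59, permutation BH-adjusted p = 0.0105 and 0.0397), and without p95HER2 4 and EV 7 the pooled r was 0.58 and the centred r 0.43. Lgals9 varied with both, at a centred r of 0.75 with T cell and 0.73 with macrophage markers (rho 0.72 and 0.76, permutation BH-adjusted p = 0.00408 and 0.00844 for r). Pooled, its r was 0.79 and 0.74 in that order (permutation BH-adjusted p = 0.002 and 0.004). With fibroblast markers its pooled r was 0.59 (rho 0.79, permutation BH-adjusted p = 0.0475 and 0.00237). The centred r of 0.51 did not pass there, while rho of 0.62 did (permutation BH-adjusted p = 0.124 and 0.0397).

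Nt5e and Pvr varied with epithelial markers inside the groups. For Nt5e the centred r was 0.72 (rho 0.72, permutation BH-adjusted p = 0.00408 and 0.0151), with 0.87 within p95HER2 and 0.65 within EV tumours, and it was 0.70 without EV 1 and p95HER2 8. The pooled r of 0.36 did not pass (rho 0.24, permutation BH-adjusted p = 0.283 and 0.492). With macrophage markers the centred r of Nt5e was 0.17 (permutation BH-adjusted p = 0.678). For Pvr the centred r with epithelial markers was 0.71 (rho 0.63, permutation BH-adjusted p = 0.00669 and 0.0391) but 0.44 without EV 1 and p95HER2 8, so that this relation rests in part on those tumours. Pvr ran against the T cell level in EV tumours (r = -0.81) and not in p95HER2 tumours (r = 0.26), a difference that was not tested. The pooled r was -0.65 (rho -0.65, permutation BH-adjusted p = 0.0201 and 0.024), and the centred r of -0.51 did not pass (rho -0.41, permutation BH-adjusted p = 0.138 and 0.265). Cd276 varied with fibroblast markers inside the groups (centred r 0.61, rho 0.60, permutation BH-adjusted p = 0.0405 and 0.0444), though not pooled (r 0.23, permutation BH-adjusted p = 0.499). The pooled r of 0.76 between Ido1 and epithelial markers (permutation BH-adjusted p = 0.0201) rests on EV 1 and p95HER2 8, as its rho was 0.38 and r was 0.17 without them.

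**Figure D5:**
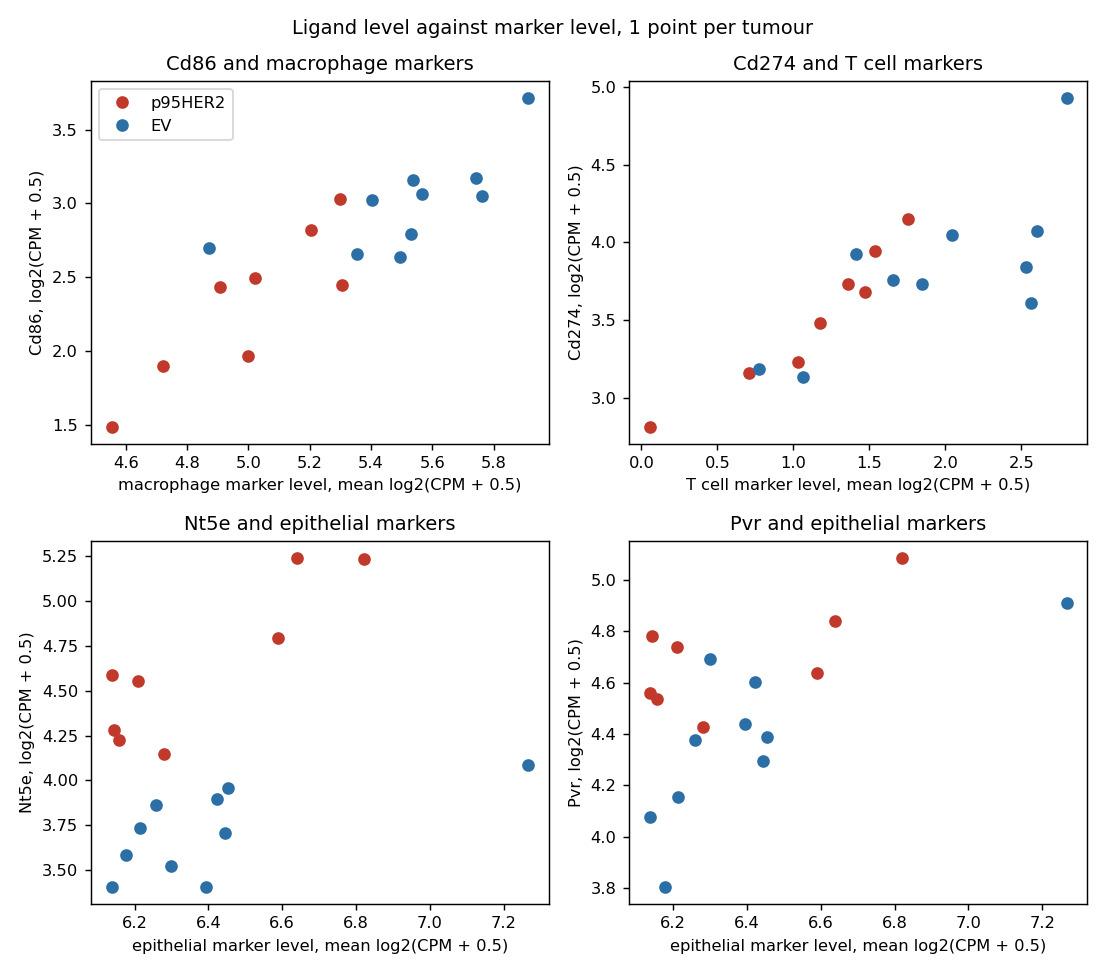
Ligand level against marker level, both on the log2(CPM + 0.5) scale, 1 point per tumour, p95HER2 red and EV blue. Cd86 with macrophage and Cd274 with T cell markers form 1 band through both groups (pooled r 0.87 and 0.82), whereas p95HER2 tumours lie above EV tumours of like epithelial level for Nt5e.

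The genes whose group-centred pattern over the 18 tumours was most like that of a ligand, among 12267 named genes of at least moderate expression, are given as a description. Cd274 was closest to Apol10b, Gbp10 and Gbp6 (r 0.96, 0.95 and 0.95). Gbp10 and Gbp6 are members of the interferon-induced guanylate-binding protein family. Pdcd1lg2 was closest to Irf1, Socs1 and H2-M2 (0.89, 0.89 and 0.88), where IRF1 is a transcription factor induced by interferon gamma and SOCS1 a feedback inhibitor of its signalling. Lgals9 was closest to the interferon-induced gene Ifi44, Ucp2 and Trim12c (0.94, 0.94 and 0.94), and those of Cd47 included the interferon-induced genes Ifi204 and Ifi211 (0.90 and 0.89). For Cd86 they were Csf2rb, Acp5 and Irf5 (0.93, 0.93 and 0.93), genes of myeloid cells, and for Cd80 Rfx1, Ncf4 and Tm6sf1 (0.89, 0.89 and 0.88), of which Ncf4 encodes a subunit of the phagocyte oxidase.

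Nt5e was closest to S100a6, Prkg2 and Cpe (0.89, 0.88 and 0.88). The kinase gene Prkg2 rose as Nt5e did, to 7.86 ± 3.63 CPM in p95HER2 against 1.38 ± 0.511 CPM in EV tumours. Cpe also rose, to 27.7 ± 8.27 CPM in p95HER2 against 19.2 ± 3.43 CPM in EV tumours (log2 fold change 0.53, edgeR adjusted p = 0.0331). S100a6 was at 107 ± 41.9 CPM in p95HER2 and 107 ± 25.4 CPM in EV tumours (edgeR adjusted p = 0.994). Pvr was closest to Dusp3, Maff and Tgif1 (0.94, 0.92 and 0.92), none of which differed between the groups past the threshold (edgeR adjusted p = 0.961, 0.396 and 0.977). Cd276 had the weakest likeness, to Oas1c, Emx2 and Scoc (0.84, 0.82 and 0.77). Oas1c and Emx2 fell in p95HER2 tumours (log2 fold change -0.56 and -0.76, edgeR adjusted p = 0.00809 and 0.00494), unlike Cd276, whose value was 0.14.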

How the data were processed

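RNA of 8 p95HER2 and 10 EV tumours was sequenced from directional mRNA libraries, per the labels' protocols. The deposited table holds raw counts of reads for each Ensembl gene, with a column for every tumour. STAR 2.5, HTSeq 0.6.1 and mm10 were used, per the submitters' processing notes, and neither strand option nor annotation release is stated there. Coordinates and exon lengths come from GENCODE M21 (GRCm38), which held 54495 of 54532 identifiers. Replicates were numbered in accession order, which pairs nothing. The most alike pair of libraries had a chi-square per degree of freedom of 9.73, above sampling noise, and all libraries were kept.

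Genes were kept by filterByExpr (minimum count 10, minimum total 15), scaled by TMM and tested with the robust quasi-likelihood F-test of edgeR 4.0.16 in R 4.3.3, with BH adjustment over all genes tested, and the test was tried on simulated counts. All single-gene adjusted p-values (BH) are from it unless DESeq2 1.42.0 is named. CPM are counts scaled to a fixed TMM-adjusted library total, given as mean ± SD. Marker levels were compared by exact two-sided permutation over 43758 assignments. Correlations used 100000 permutations (20000 with a tumour left out) and BH over 50 pairs. Counting error only is covered by limits on a count of 0.

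The ligands, lists, markers and motifs were chosen with earlier results of these data known. The text names the ligands, their receptors, Erbb2, up to 4 called genes of each other list (or the 2 of smallest p), and 3 similar genes per tested ligand (1 of them is not reported here) whose average log2(CPM + 0.5) reached 1. Entpd1 and Cd48 were named outside this rule, after their values were seen. Alternatives were RLE scaling, library totals, no filter, at least 1 CPM in 8 tumours, DESeq2, marker level covariates, a pseudocount of 1 and each tumour left out. The ratios, and dropping EV 1 together with p95HER2 4, were added after seeing the data.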

Additional observations from a re-analysis of the deposited data

Results flagged for a closer look

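Within each group, the highest and lowest tumour were compared with the rest for the 10 ligands and 5 marker levels. Of 30 groups of values, 5 held a tumour far from the others, where chance gives about 1 in 20 for a single group. All of these flags fell on EV 7 or EV 1, and several of the flagged values vary together. The count therefore cannot show an excess over chance. In EV 7, Cd274 was at 30.0 CPM, with the next EV tumour at 16.3 CPM, and Cd86 at 12.7 CPM, with the next at 8.52 CPM. EV 7 also had the highest T cell and macrophage levels of all tumours (2.80 and 5.91). In EV 1, Ido1 was at 0.436 CPM, with the next EV tumour at 0.138 CPM. EV 1 also stood apart by an epithelial marker level of 7.27, with the next EV tumour at 6.45, and by a skeletal muscle marker level of 3.12, with the next at 6.96.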

How the results depend on the processing

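The rise of Nt5e was called in every alternative run, with log2 fold changes from 0.88 to 1.10. The count of 2 called ligands (1 higher, 1 lower) was 1 without a filter (0 lower, Cd86 edgeR adjusted p = 0.057) and 1 with the macrophage level as a covariate (0 lower). With the epithelial level as a covariate 2 were higher, and without EV 1 and p95HER2 4 there were 2 higher (Nt5e and Pvr) and 0 lower. Leaving out 1 tumour gave 1 to 3 called ligands, 1 to 2 higher and 0 to 1 lower. Over all genes the macrophage covariate gave 174 calls (142 higher, 32 lower), against 1743 without it (981 higher, 762 lower), and leaving out 1 tumour gave 1289 to 2331 (792 to 1201 higher, 489 without p95HER2 2 to 1130 lower). The macrophage level itself differed between the groups, so such a fit also takes up part of the group difference. With it, log2 fold changes turned to 0.20 for Cd274, 0.16 for Lgals9, 0.18 for Cd47, 0.15 for Tigit and 0.25 for Haao, with none of them called, and Cd80 was at 0.93, also not called. Cd80 ran from -0.13 to 0.18 with a tumour left out. The count of 6 differing marker levels ran from 5 to 8 and that of 12 correlated pairs from 8 to 14 with a tumour left out. The cause was not tested. Pdcd1lg2 and Ido1 counts limit what could be detected. No paired analysis was possible because the labels give no replicate numbers.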
